A study of Rattus norvegicus with 2 samples.

Results

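Transcripts of 6 genes that mark or direct the early oligodendrocyte lineage, Olig1, Olig2, Myrf, Cspg4, Enpp6 and Bcas1, were compared between rat C6 glioma cells and the same line after small molecule treatment. The members were chosen by name: each is the only symbol the platform annotation gives to a probe set of the deposited table. All 6 had 1 such probe set, out of 18166 genes with a symbol. C6 is an established rat glioma line, grown here in medium with serum. The untreated cells are labelled undifferentiated (C6) and the treated cells SMiG, with 1 whole-transcript array in each group. The labels of the treated sample name forskolin (a cyclic AMP raising compound), rapamycin (an mTOR inhibitor) and I-BET151 (a BET bromodomain inhibitor). A treatment protocol given for either sample instead lists 20 µM CHIR99021 (a GSK3 inhibitor) and 100 µM forskolin over 35 days, and no choice was made between these accounts. The series asks whether treated glioma cells become glial and divide less.

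Oligodendrocytes, the myelin-forming cells of the brain and spinal cord, arise from dividing progenitors. The basic helix-loop-helix factors OLIG1 and OLIG2 set up the lineage together with SOX10, and progenitors carry the NG2 proteoglycan (encoded by Cspg4) and the PDGF receptor alpha. When a progenitor commits, it switches on Enpp6, Bcas1 and Myrf, and the MYRF protein then activates the myelin genes. OLIG2 is also widely expressed in gliomas.

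None of the 6 genes differed by 2-fold or more between C6 and SMiG. Enpp6 was not detected on either array. Of the 5 detected genes, Bcas1, Cspg4 and Olig2 were higher in SMiG and Myrf and Olig1 lower, with log2 differences (SMiG minus C6, here and throughout) from −0.38 to 0.80. A gene counted as detected when at least 1 array exceeded the floor, the 95th percentile of 1342 olfactory and vomeronasal receptor genes taken as silent, which was 4.84 on the C6 array and 4.96 on the SMiG array. Over all 18166 genes with a symbol, 60.2% were detected, the share to set beside the detection counts of the lists below. Of 10931 detected genes, 3.19% were higher in SMiG by 2-fold or more and 6.51% were lower by as much, against 0 and 0 of the 5. At 1.5-fold the shares of detected genes were 10.4% and 15.1%, against 1 (Bcas1) and 0 of the 5. The median difference was 0.35 over the 5 genes and −0.01 over all detected genes. Each group holds a single array, so replicate error is unknown and none of the differences has a test or a p-value. The number of arrays limits the precision. As a scale for the differences, those of the silent receptor genes, most of them under the floor, had an SD of 0.32. Among the 500 detected genes nearest in mean level to each member, the SD was larger. It ran from 0.54 for Olig2 to 0.74 for Olig1, with 0.61 for Bcas1. In RNA from whole cultures, fewer cells expressing a gene and less RNA per cell cannot be told apart.

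**Figure D1:**
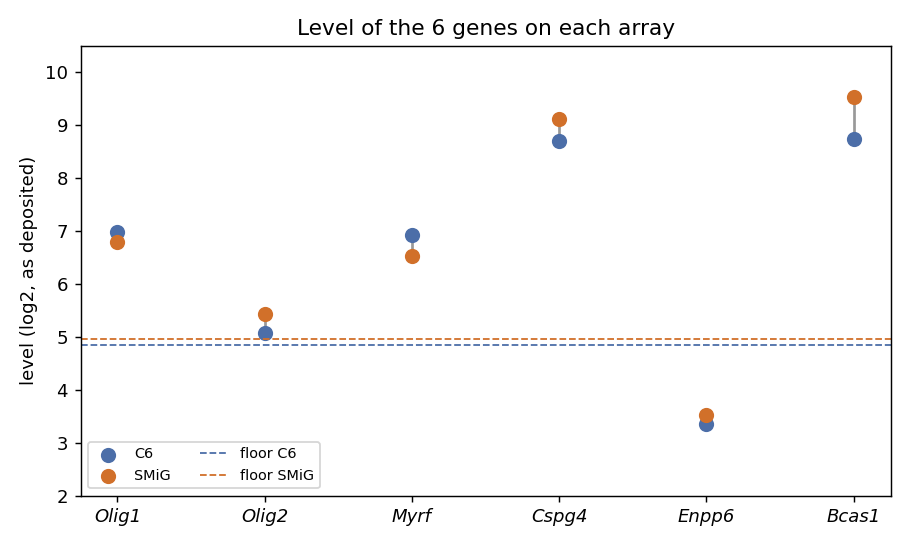
Log2 level of each gene on the C6 array (blue) and the SMiG array (orange), with the floor of each array as a dashed line; there is 1 array per group and no error bar. Enpp6 lies under both floors, Olig2 lies just above them, and the other genes are well above; heights of different genes come from different probes and are not to be compared.

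Sequences upstream of 3 members stood in the RefSeq promoter table of the GRCr8 assembly, and no window of Olig1, Myrf or Bcas1 was analysed here. They are shown to set Enpp6, under the floor, beside the detected members Olig2 and Cspg4. Each is the 250 bases before the gene's start, on the gene's strand, from chr11:43961335-43961584 (+) for Olig2, chr8:66160692-66160941 (+) for Cspg4 and chr16:52026729-52026978 (−) for Enpp6. Capitals mark matches, on either strand, to any motif of a short search list.
Olig2: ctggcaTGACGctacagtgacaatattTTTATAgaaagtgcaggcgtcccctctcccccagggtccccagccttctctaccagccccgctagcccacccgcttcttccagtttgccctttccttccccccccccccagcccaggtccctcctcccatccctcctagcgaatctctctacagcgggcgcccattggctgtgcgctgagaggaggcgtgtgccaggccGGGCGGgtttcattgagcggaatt
Cspg4: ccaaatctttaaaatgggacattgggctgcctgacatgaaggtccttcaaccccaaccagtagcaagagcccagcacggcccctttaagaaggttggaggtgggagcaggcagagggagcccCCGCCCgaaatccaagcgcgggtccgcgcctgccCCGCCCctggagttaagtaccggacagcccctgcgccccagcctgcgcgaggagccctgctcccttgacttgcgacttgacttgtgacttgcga
Enpp6: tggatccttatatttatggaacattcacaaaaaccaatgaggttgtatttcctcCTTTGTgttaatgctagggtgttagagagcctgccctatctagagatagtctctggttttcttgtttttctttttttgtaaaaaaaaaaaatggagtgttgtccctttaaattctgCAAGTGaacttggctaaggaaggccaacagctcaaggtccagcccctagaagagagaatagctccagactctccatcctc

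The windows differed in CpG pairs. Olig2 had 12 CpG pairs and Cspg4 14, and Enpp6 had 0, beside a median of 5 pairs over 33465 windows. In GC content Olig2 and Cspg4 both stood at percentile 79.0 of the windows and Enpp6 at 13.8. Among genes with both a window and a probe set, receptor genes left out, 83.5% of 8055 with at least 10 pairs were detected here, against 25.6% of 395 with 0. Windows of at least 10 pairs made up 60.3% of these genes and windows of 0 pairs 2.96%. This is a description across genes, which are not independent. Whether CpG pairs bear on the detection of Enpp6, Olig2 or Cspg4 was not tested. The cyclic AMP response element TGACGTCA was in 0 of the 3 windows and in 1.59% of all windows. Its shorter core TGACG, contained in that element, matched 1 time in Olig2 (18.2% of windows). The E box CANNTG, the general motif of basic helix-loop-helix factors, matched 1 time in Enpp6 and not in Olig2 or Cspg4, against 65.5% of windows. Its forms CAGCTG (4007 of 33465 windows) and CATATG (3.63%) matched in none of the 3. Of the SOX cores, ACAAAG (16.3%) matched 1 time in Enpp6 and ACAATG (11.1%) in none. The GC box GGGCGG (30.5%) matched 2 times in Cspg4 and 1 time in Olig2, and TATAAA (12.9%) 1 time in Olig2. A match is a run of letters and not a shown binding site, and a missing match concerns only this window.

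Among the regulators, Olig2 (probe set 17664621) had a log2 level of 5.08 in C6 and 5.43 in SMiG, a difference of 0.35 (1.28-fold). It lay close to the floor, 0.24 above the floor in C6 and 0.47 above it in SMiG, and it lay under a stricter floor, set at the 99th percentile of those receptors (5.91 and 5.99). Olig1 (probe set 17664624), its paralog, stood at 6.99 in C6 and 6.79 in SMiG, a difference of −0.20 (1.15-fold lower). Olig1 was clear of the stricter floor on both arrays. The pair had differences of opposite sign, 0.56 apart. The genes are neighbours on chromosome 11, with no protein-coding gene of the RefSeq annotation between them. Beyond Olig1 lies Ifnar2, not analysed here, and then Il10rb, an interleukin 10 receptor subunit gene, at −0.17. On the far side of Olig2, Epcip was under the floor in C6 and just above it in SMiG, and Paxbp1 was at −0.45.

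Myrf (probe set 17640423), encoding the membrane-bound factor that cleaves itself and enters the nucleus to switch on myelin genes, had a level of 6.92 in C6 and 6.54 in SMiG. Its difference of −0.38 (1.31-fold lower) was the lowest of the 5 detected members. Sox10, whose product activates Myrf in oligodendrocytes, was at 9.30 in C6 and 10.32 in SMiG, a difference of 1.01. The difference of Myrf lay 1.40 below that of Sox10, and the difference of Olig2 lay 0.66 below it. Tmem98, encoding a membrane protein that binds MYRF and blocks its cleavage, was at 0.07. The related gene Myrfl was under the floor on both arrays.

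The proteoglycan gene Cspg4 (probe set 17844404) was brightly expressed on both arrays, at 8.70 in C6 and 9.12 in SMiG, a difference of 0.42 (1.34-fold higher). Pdgfra, the receptor gene that marks progenitors alongside Cspg4, was at 10.61 in C6 and 9.44 in SMiG, a difference of −1.17. These progenitor markers lay on opposite sides, 1.59 apart. NG2 also marks pericytes, so their markers were read alongside. Of 15 pericyte and mural cell genes with a probe set, 8 were under the floor on both arrays, among them Abcc9, Anpep and Des, picked out after their values were seen. Over all genes with a symbol, 7235 of 18166 were under it on both arrays. The summed linear level of the list was 1910 in C6 and 1610 in SMiG. Without Pdgfrb, which stood at −2.36, it was 1526 and 1535. Cspg4 is included in all of these sums, so they do not describe the list apart from it. Of the 7 detected genes 4 had a positive difference, Cspg4 among them, with a median of 0.09. Over the 6 detected besides Cspg4 the median was −0.10. Mcam, an adhesion gene of mural cells, was bright at 9.68 in C6 and 9.38 in SMiG, and Rgs5, a signalling regulator of pericytes, was under the floor in C6 and at least 1.17-fold higher. Their part in the value of Cspg4 was not tested. Cspg4b, a second gene named after the same proteoglycan, was under the floor on both arrays.

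The 2 markers of committed cells differed in detection. Bcas1 (probe set 17779697), whose product is found in oligodendrocytes that begin to form myelin, was at 8.74 in C6 and 9.54 in SMiG. Its difference of 0.80 (1.74-fold higher) was the largest of the 5 detected members, and it was bright on both arrays. Enpp6 (probe set 17711667) encodes a phosphodiesterase of newly formed oligodendrocytes. It was at 3.36 in C6 and 3.52 in SMiG, 1.48 and 1.44 below the floors. Its difference of 0.16 therefore has no meaning as a change, and no fold is given. Other genes of its family, chosen after their values were seen, did reach the floor. Enpp1 was at 11.32 in C6 and 9.40 in SMiG. Enpp3 had a difference of −1.55 and was only 0.04 above the floor in SMiG. Enpp2, encoding autotaxin, was under the floor in C6 and at 7.69 in SMiG.

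In order of difference the 5 detected genes ran Myrf, Olig1, Olig2, Cspg4 and Bcas1. Without replicates no neighbours in this order can be shown to differ. Olig2 and Cspg4 were 0.07 apart, Myrf and Olig1 0.18, and Cspg4 and Bcas1 0.37. The ends, Bcas1 and Myrf, were 1.18 apart. Set among all detected genes, Bcas1 stood at percentile 94.3, Cspg4 at 82.8, Olig2 at 79.1, Olig1 at 34.7 and Myrf at 23.5. Among the 500 detected genes nearest in mean level the percentiles were 92.8 for Bcas1, 79.4 for Cspg4, 81.4 for Olig2, 39.0 for Olig1 and 25.8 for Myrf. Of those 500 genes, 13.8% differed by as much as Bcas1 in either direction, and for the other detected members the share ran from 35.4% for Olig2 to 69.8% for Olig1.

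**Figure D2:**
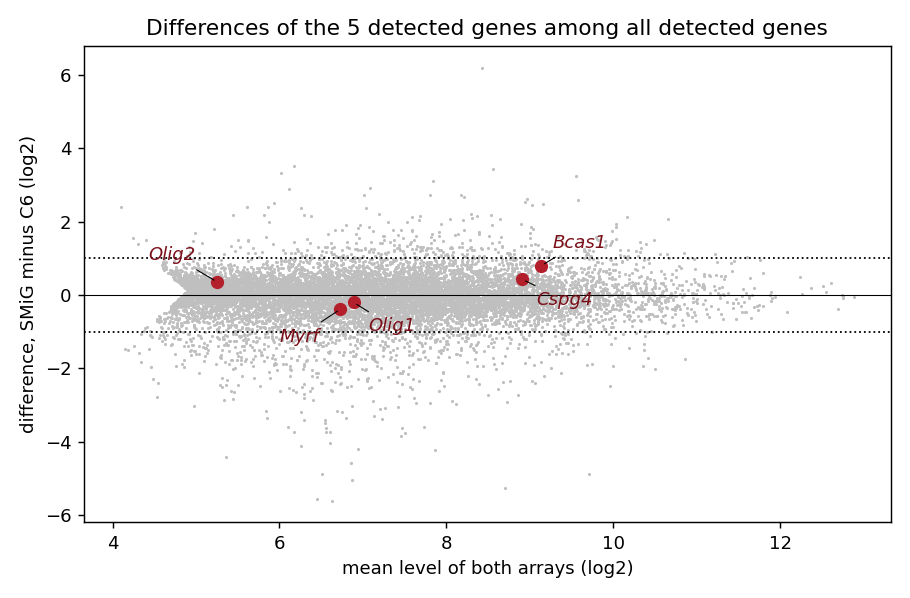
Log2 difference, SMiG minus C6, against the mean log2 level of both arrays for 10931 detected genes (grey), with the 5 detected members in red and dotted lines at 2-fold. All 5 lie inside the dotted lines, Bcas1 nearest to one at 0.80.

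The lineage genes closest to each member in difference, out of 139 detected non-members of the lineage lists, were found as the smallest gap over the 2 arrays. Rras2 (0.80) and the neuregulin receptor gene Erbb3 (0.83) were closest to Bcas1. Tmem125 (0.46) was closest to Cspg4, and the Notch ligand gene Dll1 (0.35) was close to Olig2. Tmem125 and Dll1 lay close to the floor in C6, 0.30 and 0.04 above it, which makes these matches uncertain. Olig3, next to Cspg4, and Mal, next to Olig2, were under the floor in C6, so they have only bounds (at least 1.14-fold and 1.27-fold higher) and their closeness is uncertain. Zfp536 (−0.19) and the versican gene Vcan (−0.18) were closest to Olig1, and the glutamate receptor gene Gria3 (−0.41) and Klf9 (−0.42) to Myrf. With only 2 arrays such a match says no more than that the differences are of like size.

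Transcription factors and cofactors of the lineage, Olig1, Olig2 and Myrf included, made up the next list. Of 55 with a probe set, 45 were detected, beside 60.2% of all genes with a symbol. In SMiG 4 of the 45 passed 2-fold upward and 2 downward, beside 3.19% and 6.51% of all detected genes. The median difference of the 45 was 0.04, or 0.05 over the 42 detected besides Olig1, Olig2 and Myrf. With the columns centred on the median difference of all genes, these counts were 3 and 4, and Sox10 no longer reached 2-fold. The higher ones were Sox10, Sox2 (1.16) and Sox4 (1.18), of the SOX family, and Tcf7l2 (1.12), a Wnt pathway factor that promotes differentiation. The lower ones were Hes1 (−1.86), a Notch target that represses neural differentiation, and Sox5 (−1.41), which delays the differentiation of progenitors. Sox5 was only 0.01 above the floor in SMiG, so the size of its difference is uncertain. Nkx2-2, a homeobox factor of the lineage, was at 6.49 in C6 and 7.14 in SMiG, a difference of 0.65. Sox8 (0.31), Id4 (0.30), Id2 (−0.04) and Zfp488 (−0.13) showed smaller values. Sox9, Hes5 and Nkx6-2 were under the floor on both arrays.

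Progenitor markers, Cspg4 included, were split. Of 37 with a probe set, 22 were detected. In SMiG 3 passed 2-fold upward and 3 downward, beside 3.19% and 6.51% of all detected genes. The median of the 22 was 0.12, or 0.07 over the 21 detected besides Cspg4. Traf4 (2.21) and C1ql1 (1.29) were highest. Tmem100 (−1.20) and Pdgfra were lower with both arrays above the floor, while Tnr, encoding tenascin-R, lay under the floor of SMiG and was lower by at least 1.51-fold. Ptprz1, a receptor phosphatase gene common in gliomas, was bright on both arrays and at 0.17. Gpr17, the receptor gene of cells in transition, was under the floor on both arrays, as was Enpp6.

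Markers of committed and premyelinating cells, the list that holds Enpp6, Bcas1 and Myrf, had 25 of 36 members detected. Of these 4 passed 2-fold upward and 3 downward, beside 3.19% and 6.51% of all detected genes. The median of the 25 was 0.13. Centred in the same way, 2 passed upward and 3 downward. Tcf7l2 was the highest, and Parvb (−1.47), Frmd4a (−1.38) and Mycl (at least 1.96-fold lower, under the floor in SMiG) were the lowest. Bcas1 was 1 of 8 genes of the list between 1.5-fold and 2-fold higher. In all, 12 of the 25 passed 1.5-fold upward and 4 downward, where the shares over detected genes were 10.4% and 15.1%.

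Myelin and mature oligodendrocyte genes, many of which MYRF and SOX10 activate, had 26 of 41 members detected and a median of 0.35. The list also holds Olig1, Olig2, Myrf and Sox10. Without Olig1, Olig2 and Myrf the median of the 23 left was 0.38. Of the 26, 7 passed 2-fold upward, Sox10 among them, and 4 downward, beside 3.19% and 6.51% of all detected genes. Enpp2 (at least 7.21-fold), Fa2h (1.74) and Cnp (1.52) were higher, and Evi2a (at least 3.24-fold) and Il33 (at least 6.06-fold) lower. Of the 26, 5 passed the floor in SMiG only, which favours a positive difference, and 4 in C6 only. Mbp, Mog and Mag, major myelin genes, were among those seen in SMiG only, at most 0.21 above its floor. Genes of signals that act on the lineage had 36 of 50 detected and a median of 0.17. Of these 7 passed 2-fold in each direction, beside 3.19% upward and 6.51% downward over all detected genes. Lifr (at least 8.51-fold) and Fgfr3 (1.84) were among the higher and Jag1 (at least 4.16-fold), a Notch ligand gene, among the lower.

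**Figure D3:**
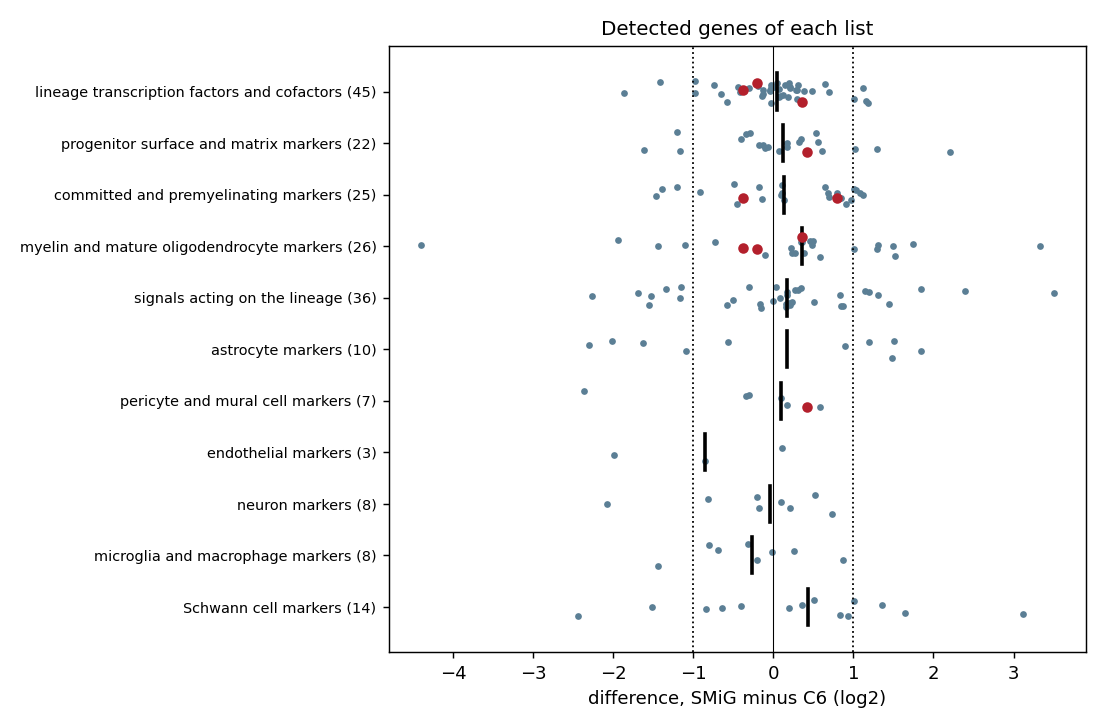
Log2 difference, SMiG minus C6, of the detected genes of each list (number in brackets), 1 point per gene, with the list's median as a black bar and dotted lines at 2-fold; vertical scatter within a row has no meaning. Members (red) lie between the dotted lines in each list, and a gene may stand in more than 1 list.

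Markers of other cell types gave the following background. Their 2-fold counts are to be set beside 3.19% of all detected genes upward and 6.51% downward. The astrocyte list had 10 of 21 members detected, 4 past 2-fold upward and 4 downward, with S100b at 1.20, Gfap at −0.56 and a median of 0.17. Of the Schwann cell list 14 of 18 were detected, 4 past 2-fold upward and 2 downward, with a median of 0.43. Pmp2 was highest at 3.12. Cdh19 (at least 3.39-fold lower, under the floor in SMiG) and Scn7a (−1.52) were lowest. Sox10 and Erbb3 stand in that list too. Of the neuron genes 12 of 20, of the microglia genes 8 of 16 and of the endothelial genes 10 of 13 were under the floor on both arrays. Over all genes with a symbol 7235 of 18166 were, so such counts alone do not show a cell type to be absent. The summed linear level of a list, genes under the floor included, was higher in SMiG for astrocytes (4493 in C6, 6239 in SMiG) and Schwann cells (5287 and 9106). It was lower for neurons (1838 and 1387), microglia (863 and 592) and endothelium (323 and 254). Much of the lower sums came from 1 gene each. Without Gad1 the neuron sums were 1471 and 1300.0, without Cd14 the microglia sums were 495 and 456, and without Flt1 the endothelial sums were 235 and 232. Single genes held part of the higher sums too. Without S100b the astrocyte sums were 3676 and 4361, and without Pmp22 the Schwann cell sums were 3270 and 5257. The part of these cell types in the values of the 6 genes was not tested. Actb, a reference gene, was at 0.08.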

How the data were processed

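Total RNA of 2 samples, 1 of C6 and 1 of SMiG, was labelled with biotin as sense cDNA for GeneChip arrays of the whole-transcript kind, per the labels. The deposited table gives 1 value for each of 36685 probe sets and array. The values are taken as log2 expression made by the authors: the base is read from their range (1.26 to 13.09), and background correction, normalization and probe set summary (not given in the sources used here) could change any fold. No further normalization was applied. Of the probe sets, 18511 had 1 symbol in the platform annotation, 575 had several and 17599 none. Only the first kind was used, averaged by gene. The floor used receptor genes under old (Olr, Vom) and current (Or) symbols. The old symbols alone, as first planned, are an alternative chosen after seeing the data. Where 1 array is at or below its floor, a fold is a lower bound against that floor. Differences between cultures and between arrays cannot be told apart.

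The 6 genes and the gene lists were chosen with earlier results of these data known. List genes were matched by RefSeq gene number. Named outside the members are up to 4 genes per list, by size of difference, a fixed set, and the 2 genes nearest to each member. Relatives of the members, their chromosomal neighbours and Abcc9, Anpep and Des were named outside this rule, with values in view. Counting was checked on simulated data. Python 3.11.15, numpy 2.4.6, pandas 2.3.3, statsmodels 0.14.6 and matplotlib 3.10.9 were used.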

Additional observations from a re-analysis of the deposited data

How the results depend on the processing

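The differences of the 5 detected genes kept their sign and stayed under 2-fold under each alternative run: the stricter floor, no floor, values raised to the floor, quantile normalization, centring by the median difference, a lowess trend (span 0.3) taken out, the brightest probe set, each probe set alone, and, chosen after seeing the data, a floor from 227 receptor genes under old symbols. Only quantile normalization, centring and the lowess trend could change these differences. Each detected member had 1 probe set, above the floor on both arrays, so the floor and probe set settings left its difference as it was. The ranges were 0.75 to 0.82 for Bcas1, 0.38 to 0.44 for Cspg4, 0.29 to 0.37 for Olig2, −0.25 to −0.15 for Olig1 and −0.43 to −0.33 for Myrf. Enpp6 stayed under the floor, and its sign has no meaning. Olig2 has no value at the stricter floor, where it was not detected. Other fold thresholds moved the background by construction: 1140 detected genes were at least 1.5-fold higher and 1649 lower, and 80 were at least 3-fold higher and 274 lower, against 349 and 712 at 2-fold. No paired analysis was possible because each group holds 1 array. Of the list medians, list counts and member percentiles, 29 moved and 318 did not. Moved means by over 0.32 for a median, 1.5 times for a count or 10 points for a percentile. None of the percentiles moved. Most of those that moved were counts at 1.5-fold or 3-fold, which shift by construction. Many of the others came from settings that could hardly alter them, so the tally does not measure stability. At the stricter floor the Schwann cell median was 0.83 over 11 genes and the pericyte median −0.30 over 3. Centring turned the median of the transcription factors from 0.04 to −0.0032. It also lowered the 2-fold upward counts of progenitor markers from 3 to 2, myelin genes from 7 to 6 and Schwann cell genes from 4 to 3. Signal over background limits Enpp6, under the floor on both arrays, and then Olig2, within 0.47 of it.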

Other observations

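Exactly the same value on both arrays was listed for 1011 probe sets (2.76% of the table), with a median level of 3.45 and a highest of 9.95. They include 83 detected genes (0.76%), 3 genes of the lineage lists and 0 of the 6 members. The cause was not tested.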
